A study of Drosophila melanogaster with 4 samples.

Results

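The probes described here gave a signal at least 2-fold lower on both arrays from eag mutant neuroblasts than on both arrays from neuroblasts with wild type eag. They were chosen from these intensities alone: a probe had to be well above background on both wild type arrays, carry no outlier flag on any array, and have a gap of at least 1 log2 unit between the lower wild type value and the higher mutant value. This gave 208 member probes, out of 34457 that passed the filter and 61657 non-control probes on the array. Since the rule used the comparison of genotypes, the size and direction of the members' differences are given as a description and support nothing by themselves. A fit across all probes is printed further on, and its values for the members are no test of them, since both rest on the same contrast. The filter asked for a signal in the wild type only, so members passed it through the group in which they were high.

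Neuroblasts are the neural stem cells of the fly brain, which divide unequally to renew themselves and to give daughter cells that go on to form neurons and glia. The gene eag encodes the Ether-a-go-go potassium channel, a voltage-gated channel that lets potassium ions leave the cell and for which a family of animal channels is named. The gene dpn encodes Deadpan, a transcriptional repressor of the basic helix-loop-helix type that keeps neuroblasts in their stem cell state, and its overexpression is used to expand that state. The series title places the study in the setting of EAG2, a mammalian channel of the same family, as a target in brain tumours.

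Both groups, of 2 samples each, were insc-Gal4>mCD8-GFP cells of Drosophila melanogaster with dpn overexpression. The first group was eag mutant. The second carried no eag mutation in its labels and is called eag wild type. The marker mCD8-GFP is a membrane-bound green fluorescent protein, driven by Gal4 under the control of insc, the gene for Inscuteable, a neuroblast polarity protein. Cells were freed from brains with trypsin and sorted by fluorescence, and RNA from 20000 to 40000 cells was amplified before hybridisation, so that the samples hold whatever cells the driver marked. The eag allele, the age of the animals, the driver of dpn and the number of sorts behind a group are not given in the labels. Any p-value thus rests on a spread between samples that could be technical only.

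The array files identify a probe by a letter code and a number, with no gene, and 0 of the IDs matched the RefSeq gene table. The members are therefore given as probes, the levels of eag, dpn and insc and the neuroblast, neuron, glia and haemocyte markers were not read, and no sequence is shown. A signal is in intensity units scaled to the 75th percentile of each array and put on a log2 scale. This percentile was 417 and 278.2 intensity units on mutant replicates 1 and 2, and 906.1 and 555.7 on wild type replicates 1 and 2, so that both mutant arrays were the dimmer ones before scaling. The lowest scaled signal counted as well above background was 4.46 and 5.12 log2 units on the mutant arrays, and 3.27 and 4.17 on the wild type arrays, which puts the detection limit higher in the mutant by scaling alone. A brightness also depends on a probe's own sequence, so brightness is used below to describe how well a probe was measured and not how abundant its transcript was.

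The members had a median scaled signal of 5.85 log2 units on mutant replicate 1 and 5.91 on mutant replicate 2. Their median was 7.38 on wild type replicate 1 and 7.46 on wild type replicate 2. The corresponding medians over all 34457 probes that passed the filter were 8.69 and 8.71 on the mutant arrays and 8.69 and 8.67 on the wild type arrays. The members were thus dimmer than most other probes on the mutant arrays and, less so, on the wild type arrays. In pooled sorted cells, fewer cells of a type and less RNA per cell cannot be told apart. Signals reached from 0 to 13.40 and from 0 to 13.49 log2 units on the mutant arrays, and from 3.79 to 18.75 and from 4.41 to 14.51 on the wild type arrays, where 0 is the floor of 1 intensity unit.

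Most members lay close to the threshold. Their median difference between group means was -1.54 log2 units, eag mutant minus wild type, with quartiles of -1.82 and -1.30, against a median of 0.01 over all probes that passed the filter. The median gap was 1.17 log2 units, with a gap of at least 1.5 in 33 members and of at least 2 in 7. The 3 members just inside the threshold had gaps of 1.002, 1.003 and 1.004 log2 units, and the 3 probes just outside it had 0.997, 0.996 and 0.994. The members made up 0.604% of the probes that passed the filter, while 28.2% had both mutant values below both wild type values by any amount. The same rule turned round, for probes detected on both mutant arrays and at least 2-fold higher there, was met by 868 of 32419 probes (2.68%).

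These counts moved with the processing. With normexp background correction 39 probes met the rule, 35 of them members, and 419 met its mirror image. With quantile normalization 457 probes met the rule and 509 its mirror image, while scaling to the array median gave 847 and 350, so that of these settings only median scaling put the probes lower in the mutant ahead of those higher. Scaling to the median placed all probes that passed the filter at a median of -0.34 log2 units. With that shift removed, a setting chosen after seeing the data, 184 probes met the rule, 179 of them members. Leaving out an array loosens the rule by construction, and 818 probes met it without mutant replicate 1, 553 without mutant replicate 2, 1168 without wild type replicate 1 and 469 without wild type replicate 2.

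How well the members were measured in the mutant split them into 3 classes. On both mutant arrays 114 members were well above background, while 23 were so on 1 mutant array and 71 on neither. Over all probes that passed the filter, 91.4% were well above background on both mutant arrays, 6.09% on 1 and 2.47% on neither. Put the other way, 0.362% of the probes measured on all 4 arrays were members, against 8.35% of those measured on neither mutant array.

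The 114 members measured on all 4 arrays had a median group mean of 7.57 log2 units for mutant arrays and of 9.10 for wild type arrays. Their differences were between -2.22 and -1.05 log2 units with a median of -1.37, which is 2.59-fold lower. The one with the largest gap, a probe of the ID series fe, had 6.22 and 5.94 log2 units in the mutant, against 8.14 and 8.45 in the wild type. It was 4.65-fold lower, and the values within each genotype lay much closer together than the genotypes did, which its choice by gap favours. The brightest of the 114 had 13.40 and 13.49 in the mutant, against 14.53 and 14.51 in the wild type. It was 2.10-fold lower, which is near the threshold. The values within each genotype were closer to each other than to any value of the other genotype, which the rule favours.

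For the 71 members measured on neither mutant array, the mutant level is a bound only. Their wild type means had a median of 5.45 log2 units, close to the detection limits of the mutant arrays. Each fold was therefore set against the higher of the detection limit and the probe's own signal on each mutant array. With the scaling used here, 24 of the 71 were at least 2-fold lower in the mutant by this bound, and the median bound was at least 1.59-fold. For 10 of the 71 the wild type mean lay below the mean of both mutant detection limits (4.79 log2 units), and for 3 of these below each limit, so no fold is given. The direction of this class turned in the normexp setting. There 20 of the 71 kept a lower mutant mean and the class median was 0.12 log2 units. A floor of 32 intensity units left a median of -0.45, against -1.75 as scaled here. One probe with a deviating wild type array, described below, had a bound far above the rest, among which the highest was at least 5.31-fold. This probe is counted among the 24, and its bound rested on that array.

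The members with the largest gaps were among these bounds. Probe ft07362, with the largest gap of all, was at the floor of 0 log2 units on both mutant arrays, against 4.24 and 4.41 in the wild type. Before scaling, the mutant arrays had -0.221 and -0.803 intensity units and the wild type arrays 31.6 and 21.9, so the wild type signals also lay low, and below the detection limits of the mutant arrays. No fold is given for it, although the fitted difference was -4.32 ± 0.66 log2 units (SE from limma, n = 2 per group). Probe ft03150 came next, with 1.62 and 0 log2 units in the mutant, against 5.16 and 5.59 in the wild type. Its fitted difference was -4.57 ± 0.74 log2 units (SE from limma), while the bound was at least 1.50-fold lower. Both of these differences rested on weak signals. Both signs turned under normexp (0.41 and 0.028 log2 units). That setting changed the signal measure and the background and added an offset, and the part of each was not tested. A raised floor left 0 and -0.37. The probes with the next number had differences of -0.59 and -0.24. In series ft the differences of consecutive numbers correlated with r = 0.073 only, so nothing is read from these 2 values.

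The most negative difference between group means, -10.44 log2 units, rested on a single wild type array. This probe of series fc had 0.28 and 2.05 log2 units in the mutant, against 18.75 in wild type replicate 1 and 4.46 in wild type replicate 2. On wild type replicate 1 it was number 2 in brightness among all non-control probes, while on the other 3 arrays it lay low. Its wild type values were 14.28 log2 units apart, and no other member had wild type values more than 1.40 apart. Its membership did not rest on the bright array, since it met the rule through the dimmer wild type value, with a gap of 2.41. That value lay at the detection limit of mutant replicate 1 (4.46) and below that of mutant replicate 2 (5.12). The gap was thus between weak signals.

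At the median, spread within a genotype was otherwise small against the gap of 1.17 log2 units, though not in every member. The absolute difference between the mutant replicates had a median of 0.28 log2 units over the members and 0.29 over all probes that passed the filter, and 22 members (10.6%) were more than 1 unit apart, against 6.88% of all. Between the wild type replicates it was 0.23 over the members and 0.35 over all, and 3 members (1.44%) were more than 1 unit apart, against 9.42%. On at least 1 mutant array 9 members were at the floor. The rule itself favours replicates that lie close together, so these spreads are descriptive. The arrays of replicate 1 stood together in row 1 of one slide, and those of replicate 2 in row 2. Within row 1 the members' median difference was -1.32 log2 units, eag mutant minus wild type, and within row 2 it was -1.63, against 0.10 and -0.08 over all probes that passed the filter.

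Members were more frequent among dim probes. When the probes that passed the filter were ranked by their mean wild type signal and cut into 10 equal classes, 143 of the 208 members (68.75%) fell in the dimmer 5 classes. The dimmest class held 40 members, or 1.16% of its probes, none of them measured on both mutant arrays. Classes 5 to 7 held 25, 18 and 26 members, all of them measured on both mutant arrays. The brightest 3 classes together held 21 members, and the brightest of all held 1, or 0.029% of its probes. The 21 include the probe with the deviating wild type array, which lay low on the other 3 arrays. The part of the detection limit in the differences of the dimmest members was not tested beyond the bounds above.

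The probe IDs run in 6 series, called here after the letters they begin with. What the letters stand for is not known from the labels or files. Series fe supplied 69 members from 6313 probes that passed the filter (1.09%), while series fc, the largest on the array, supplied 73 from 17862 (0.409%). Series ft gave 37 (0.689%), fu 24 (0.599%) and fv 5 (1.05%). None of the 435 probes of series fr was a member. The median difference over all fr probes was 0.62 log2 units, eag mutant minus wild type. Restricted to probes measured on all 4 arrays, the share of members was 0.698% in fe, 0.210% in fc, 0.467% in ft, 0.355% in fu and 0.725% in fv. The fe share was thus above the fc share with and without the dim probes, and the fv shares rest on 5 members or fewer.

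Members tended to come with the probe of the next or previous number. Among the 208 were 29 pairs of consecutive IDs, which held 58 members (27.9%). Series fe had 17 of the pairs, fc 10, and fu and fv 1 each, while ft, with 37 members, had none. The differences of both probes of a pair were separated by 0.14 log2 units at the median and by 0.90 at most. The rule had chosen both probes by the same values, so nothing is read from this. Probes of a pair did not lie side by side on the array: their spots were 25.02 to 298.4 positions apart, with a median of 125.8, on a grid of 384 rows and 164 columns.

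The pair with the largest mean difference belonged to series fe. Its first probe had 4.84 and 4.99 log2 units in the mutant, against 7.24 and 7.53 in the wild type. Its second probe had 4.98 and 5.44 in the mutant, against 7.39 and 7.59 in the wild type. Both mutant arrays lay well below both wild type arrays for each probe, although only 1 of these 4 mutant spots was well above background. Among the 17 pairs in which both probes were measured on all 4 arrays, the largest was also in fe. Its first probe had 5.72 and 5.94 log2 units in the mutant, against 7.11 and 7.47 in the wild type, and was 2.75-fold lower. Its second probe is the one with the largest gap among the fully measured members, given above, so the sizes within this pair were 0.75 log2 units apart.

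The neighbours of members by number leaned the same way. Of the members, 193 had at least one neighbour by number that passed the filter, giving 290 such neighbours counted once per member. Among these, 58 (20%) were members themselves, against the 0.604% of all probes that passed the filter. The 290 had a median difference of -0.65 log2 units, and 224 of them were lower in the mutant. Both mutant values lay below both wild type values in 183 (63.1%), against 28.2% of all probes that passed the filter. The 58 members are lower by the rule and enter these values, so only the other neighbours are read here. The 232 neighbours that were no members had a median of -0.44 log2 units, with 125 (53.9%) below. Non-members 2 numbers away had a median of -0.03 log2 units with 31.95% below, and those 3 numbers away -0.01 with 31.7%. In series fe these medians were -0.18 and -0.16, with 36.1% and 37.5% below, against a median of -0.06 and 31.8% over all fe probes that passed the filter. Among neighbours that were no members, the 73 in series fe had a median of -0.51 with 63.0% below, against 31.8% of all fe probes that passed the filter, and the 79 in fc had -0.45 with 57.0%, against 31.5%. The 39 in fu had -0.39 with 41.0%, against 20.7%, and the 36 in ft had -0.24 with 38.9%, against 21.9%, while fv had only 5. These neighbours come from the same 4 arrays and RNA samples as the members and are no independent samples.

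The same relation was seen across the array. Over 24411 pairs of consecutive numbers that passed the filter, the differences between genotypes correlated with r = 0.385 and the wild type signals with r = 0.387, and at a distance of 2 numbers with r = 0.051 and r = 0.069 over 20101 pairs. In series fe the values for consecutive numbers were 0.480 and 0.504, in fc 0.435 and 0.499, and in ft 0.073 and 0.011. All these pairs share the arrays, so the coefficients carry no p-value. Series ft, which had no member pairs, thus had lower coefficients for consecutive numbers than fe or fc. Whether consecutive numbers measure one transcript was not tested, since no probe is paired with a gene here.

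Members in pairs were more often measured on both mutant arrays than the rest. Of the 58 members in pairs, 40 (69.0%) were measured on both mutant arrays and 9 on neither, against 74 (49.3%) and 62 of the 150 members outside pairs. Their median wild type signal was 8.61 log2 units, against 7.01 outside pairs, while their median differences were -1.64 and -1.50 log2 units. Of the 167 neighbours of the 114 fully measured members, 40 were members themselves, and the 127 others had a median difference of -0.45 log2 units, with 70 (55.1%) below. Of the 89 neighbours of the 71 members measured on neither mutant array, 9 were members, and the 80 others had -0.43, with 41 (51.2%) below. Over all probes that passed the filter, 28.2% were below.

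Members were spread over the array. When the grid was cut at its middle row and middle column, the 4 parts held 43, 61, 60 and 44 members, which were 0.498%, 0.707%, 0.704% and 0.507% of their probes that passed the filter. The higher counts lay in diagonally opposite parts.

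In the fit across all probes, no member passed the threshold. The fit held the 35366 probes with a signal well above background in both replicates of either genotype, and 0 of them were lower in the mutant at an adjusted p under 0.05 (limma with Benjamini-Hochberg adjustment, 0% called). The adjusted p of the 208 members ran from 0.222 to 0.283 in limma. At an unadjusted p under 0.05, 205 members were lower, which follows from the rule that chose them, against 2631 (7.44%) of all fitted probes. Without mutant replicate 1 or 2, 0 members passed the adjusted threshold in limma. Without wild type replicate 1, 71 members and 431 probes in all passed as lower, where the single wild type array left is taken to vary as the mutant arrays do, and without wild type replicate 2 it was 1 member.

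The authors' deposited table of processed values, whose unit and reference are unknown, lists 17822 probes and 103 of the members (49.5%), close to its 50.6% of the probes that passed the filter. It holds 85 of the 114 fully measured members and 9 of the 71 measured on neither mutant array. In that table all 103 listed members had both mutant values below both wild type values, against 31.1% of the 17429 listed probes that passed the filter. The table was made from the same arrays, so this says only that the direction of the listed members did not depend on the scaling used here. No size is taken from it, because its log base and centring are unknown.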

How the data were processed

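Agilent one-colour arrays, 1 per sample, were read with Feature Extraction 10.7.3.1, per the file headers, which name the array design's build as dm3. The deposited intensity per spot is background-subtracted and not normalized between arrays, per the file headers. The flags (other values of 0 or 1) were used as deposited, with no spot saturated (0). The authors' deposited table holds a score per probe whose 4 columns share one distribution, and how it was made is not stated in the labels or files.

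The 75th percentile over the 61657 non-control probes was brought to its mean over the arrays, values were floored at 1 and put on a log2 scale, and 47 probes with an outlier flag were left out. limma 3.58.1 in R 4.3.3 (eBayes with trend, two-sided, Benjamini-Hochberg, threshold 0.05) was fitted to all 35366 kept probes. Its code was also run on values simulated from the fit's own variances, which is no test of the model on these arrays. The members and lists were chosen with earlier results of these data known. Because no table pairs probes with genes, the 2 members with the largest gaps are named, and the gene lists and markers gave no value. Alternatives changed scaling, background, floor, filter, gap, variance model, replicate block and arrays. With 2 arrays per group, precision is limited by their number.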

Additional observations from a re-analysis of the deposited data

How the results depend on the processing

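The number of probes that met the rule depended on the processing: 847 with median scaling, 457 with quantile normalization, 392 with cyclic loess, 39 with normexp background correction, 703 with no filter on background, 114 with a signal well above background on all 4 arrays, 33 with a gap of 1.5 and 2027 with a gap of 0.5 log2 units, and 469 to 1168 with an array left out. Of the 208 members, 35 still met it under normexp, 114 with detection on all 4 arrays and 33 with the gap of 1.5, and 148 to 208 in the other settings. The cause was not tested, except that a stricter or looser gap, filter or set of arrays changes the count by construction. Under normexp all 114 fully measured members kept a lower mutant mean, 111 without overlap. Of the 71 members measured on neither mutant array, 20 kept a lower mutant mean, and 3 were without overlap. No share over all probes is given beside these counts, so they are descriptive. The normexp setting started from the median signal and local background of each spot. It also added an offset of 50 before scaling, which draws dim signals together. The part of each change in the turned signs of dim probes was not tested. The members' median difference was -1.88 log2 units with median scaling, -0.54 with normexp and -1.29 with a floor of 32, and between -1.74 and -1.42 in the other settings. The sign of ft07362 turned under normexp (0.41), as did that of ft03150 (0.028). In limma under normexp, 99 members had an unadjusted p under 0.05, and 2481 of all 35366 fitted probes were lower at that threshold. With an array left out 0 to 431 probes passed the adjusted threshold as lower, and 0 to 71 members. Replicate numbers share only a slide row. The correlation of same-numbered deviations was 0.148. With replicate number as a block in limma, 0 probes passed the adjusted threshold as lower, with the members' median difference at -1.54. At an unadjusted p under 0.05 in that fit there were 198 members, and 2664 of all 35366 fitted probes were lower. The members' counts follow from the rule that chose them. Signal over background limits the 94 members not measured on both mutant arrays. Groups of 2 arrays are too small to look for outlying samples.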
